A study of Mus musculus with 12 samples.

Results

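The suppressor of cytokine signalling (SOCS) family was followed through an RNA immunoprecipitation of the deadenylase CNOT6L from mouse hepatocytes. The family was taken as its 8 named genes, Socs1 to Socs7 and Cish, matched by symbol to the 15780 named probe sets of the array. Of the 8 genes, 7 were matched, each to 1 probe set, and Socs2 is not analysed here. The cells were primary hepatocytes, the main metabolic cell type of the liver, isolated from male C57BL/6J mice aged 8 weeks. The 4 groups were RNA precipitated with an anti-CNOT6L antibody from wild-type cells (WT IP), the same precipitation from Cnot6l knockout cells (KO IP, the negative control for the antibody), total RNA of knockout cells (KO input) and total RNA of wild-type cells (WT input). Each group had 3 arrays of the Mouse Genome 430 2.0 design, and each cell preparation was split to give 1 precipitate and 1 input. The titles call the replicates biological. Whether they came from separate mice is not otherwise stated, so the p-values measure the spread between these preparations.

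SOCS proteins form a feedback loop on cytokine signalling. A cytokine receptor activates Janus kinases (JAKs), these phosphorylate STAT transcription factors, and STATs switch on SOCS genes whose products then block the receptor, the kinase or both. Each SOCS protein has an SH2 domain that binds phosphotyrosine and a SOCS box that recruits a ubiquitin ligase built on elongins B and C and cullin 5. In the liver SOCS3 restrains interleukin-6 signalling, and CIS, the product of Cish, and SOCS2 are classical feedback inhibitors of growth hormone. Several SOCS mRNAs are short-lived, and CNOT6L belongs to the CCR4-NOT complex, which removes poly(A) tails and so starts the decay of such mRNAs.

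Socs3 and Cish are the family's textbook STAT targets, and their promoter windows from RefSeq are shown because they hold STAT motifs. Windows of Socs1 and Socs4 were also given and held none, which says nothing about the factors that act there. Their means too were highest in WT IP, but narrowly over the next group and with overlapping arrays. Socs1 averaged 5.06 in WT IP and 4.93 in KO IP, and Socs4 6.19 in WT IP and 6.15 in KO input. The windows run from 250 bases before to 50 bases after the annotated start on GRCm38.p6 and are written 5′ to 3′ on the gene's strand. Capitals mark the STAT motif TTCNNNGAA, which reads the same on both strands. The first is at chr11:117969317-117969616 on the minus strand, and the second at chr9:107296409-107296708 on the plus strand.
Socs3: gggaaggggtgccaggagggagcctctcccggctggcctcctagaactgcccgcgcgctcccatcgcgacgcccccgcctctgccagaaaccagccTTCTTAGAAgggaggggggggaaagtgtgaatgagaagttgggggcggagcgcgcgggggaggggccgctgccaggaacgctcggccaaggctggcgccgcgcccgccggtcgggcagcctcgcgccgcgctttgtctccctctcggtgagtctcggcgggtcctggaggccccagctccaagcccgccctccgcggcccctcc
Cish: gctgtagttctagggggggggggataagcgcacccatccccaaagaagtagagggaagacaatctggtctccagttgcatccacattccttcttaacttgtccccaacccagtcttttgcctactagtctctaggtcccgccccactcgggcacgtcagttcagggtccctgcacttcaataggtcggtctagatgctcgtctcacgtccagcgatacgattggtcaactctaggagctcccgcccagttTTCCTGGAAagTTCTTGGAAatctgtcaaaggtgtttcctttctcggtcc
The Socs3 window held 1 motif, TTCTTAGAA, at window positions 97 to 105 counted from the 5′ end. The Cish window held 2 motifs that did not overlap, TTCCTGGAA at positions 251 to 259 and TTCTTGGAA at positions 262 to 270, the first of them beginning at the annotated start. Of all 32851 windows of the same length in the RefSeq table, 8.3% held at least 1 such motif and 0.457% held 2 or more.

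The arrays themselves were alike in level, with medians of 6.31 to 6.45 on the log2 scale, but the precipitates differed from the inputs in their controls. Bacterial poly-A control transcripts gave IP minus input differences of 4.01 to 5.41 log2 units over the 6 preparations of both genotypes. For Gapdh the 3′ probe set exceeded the 5′ one by more in the IPs, by 0.85 to 1.95 units. These differences were of similar size in both genotypes, averaging 4.51 (WT) and 4.7 (KO) for the poly-A controls and 1.22 (WT) and 1.19 (KO) for Gapdh, and their part in the IP against input results was not tested. Hepatocyte markers averaged 10.85 in WT IP, 10.67 in KO IP, 11.15 in KO input and 11.22 in WT input over 7 genes, Alb being the brightest. Of 7 Kupffer cell and macrophage markers 2 reached the brightness filter, Cd68 among them, and the list averaged between 5.55 (KO input) and 5.85 (WT IP). Cd68, its brightest marker, averaged 10.61 in WT IP, 10.87 in KO IP, 11.89 in KO input and 11.77 in WT input. Cd68 was thus highest in KO input and lowest in WT IP, opposite to the list average. The probe set of Cnot6l, the deleted gene, read 9.11, 10.65 and 8.85 in WT IP, 9.29, 10.63 and 9.46 in KO IP, 9.12, 9.23 and 9.34 in KO input, and 8.44 to 9.51 in WT input. The arrays labelled knockout thus carried as much signal as those labelled wild type, and the genotypes overlapped. No source used here says whether those probes match deleted sequence. The probe set cannot check the labels, on which every direction between genotypes rests.

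Socs3, the inhibitor of the interleukin-6 receptor subunit gp130 and of its JAKs, was the family member with the clearest recovery in the precipitate. Its level was 9.41, 8.73 and 9.35 in WT IP (replicates 1, 2 and 3), 6.70, 6.87 and 7.32 in KO IP, 6.21, 6.04 and 6.86 in KO input, and 6.23, 5.83 and 7.03 in WT input. All WT IP arrays lay above all 9 others, and the other groups overlapped one another. Against its input, Socs3 rose in WT IP by 2.80 ± 0.37 (SE) on the log2 scale, a 6.96-fold difference (adjusted p = 0.0124 by limma, higher in 3 of 3 preparations). It ranked 6th of the 9496 genes tested by signed difference in this comparison. Of the 6 members that passed the filter on dim probe sets, 1 was called higher, where 0.105% of all genes tested were called higher, at a Benjamini-Hochberg adjusted p under 0.05. The call was lost without WT input replicate 1 (adjusted p = 0.104), WT input replicate 2 (0.0835) or WT IP replicate 3 (0.0738), with differences of 2.53 to 3.13 over all arrays left out in turn.

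**Figure D1:**
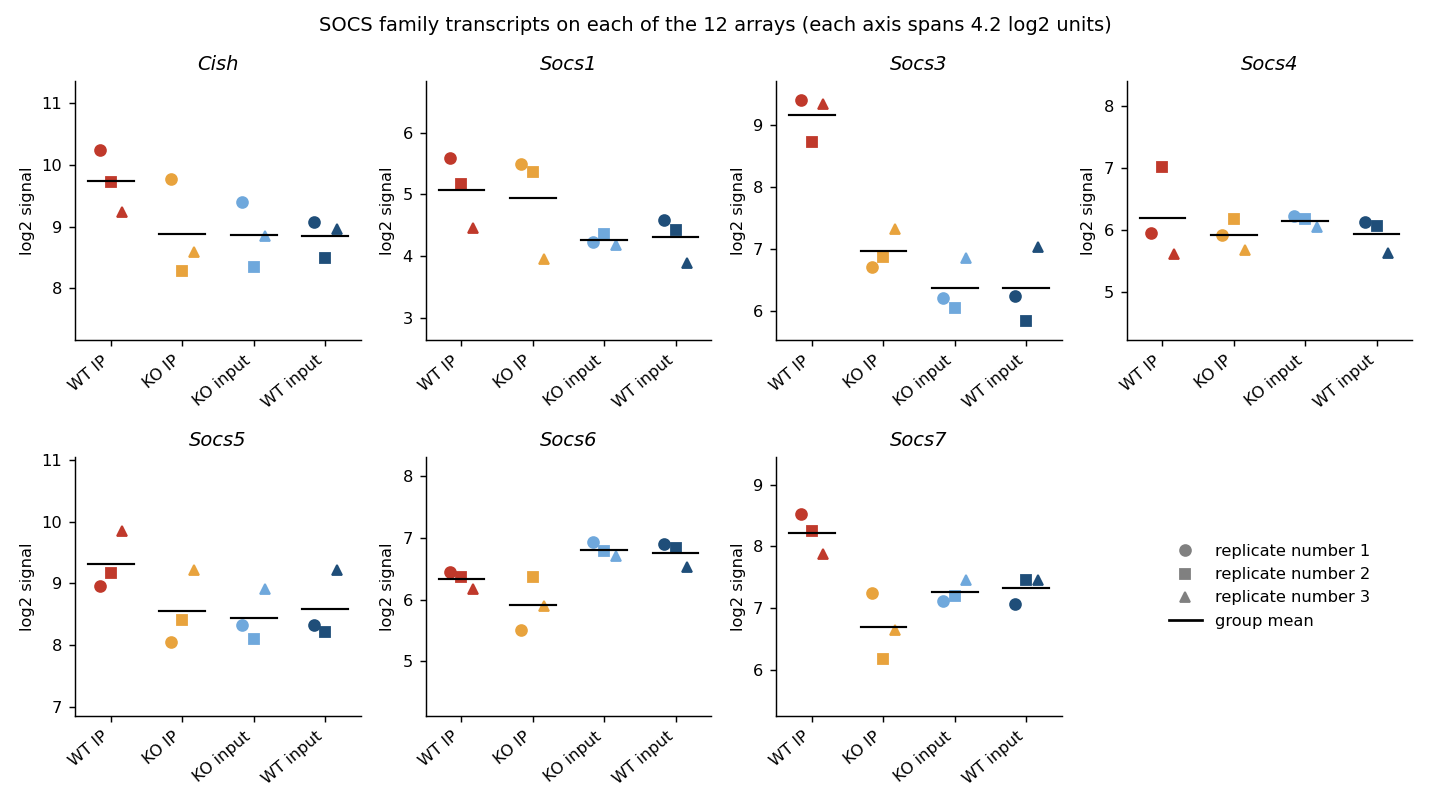
Log2 signal of the 7 SOCS family transcripts on each array, by group (x axis). Point shapes are replicate numbers and bars are group means; each axis spans 4.2 log2 units, so spreads but not heights can be set side by side. Socs3 stands at 8.73 to 9.41 in WT IP and at most 7.32 elsewhere.

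Socs3 recovery in the knockout precipitate was small. The KO IP minus KO input differences were 0.49, 0.83 and 0.45, a mean of 0.59 (95% interval -0.22 to 1.41), which did not pass (adjusted p = 0.6). In wild type the same differences were 3.18, 2.90 and 2.32. With the preparation as replicate block the knockout interval was 0.08 to 1.11, and the difference did not pass (adjusted p = 0.135 by limma). The knockout difference ranked 566th of the 9496 genes by signed difference, where the median of all genes was -0.21. No gene was called in the knockout comparison by limma without a block, 0.0% in either direction, while 282 genes on the higher side and 760 on the lower had an unadjusted p under 0.05.

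The precipitates were also set side by side. Socs3 rose in WT IP over KO IP by 2.20 ± 0.37 (SE), or 4.59-fold (adjusted p = 0.0368 by limma). Taken number by number, the gap was 2.71, 1.86 and 2.03. Here 1 of 6 members was called higher, against 0.253% of all genes tested. The call was near the threshold: it remained without WT input replicate 3 (adjusted p = 0.0374) and was lost when any other array was left out, when the adjusted p reached 0.139 at most and the difference stayed between 2.07 and 2.42. With the replicate number as a block the adjusted p was 0.00121.

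The difference between the IP minus input values of the 2 genotypes, called specific enrichment, was 2.21 ± 0.53 (SE) for Socs3, or 4.61-fold. The same-number values were 2.69, 2.06 and 1.86, all positive. It ranked 33rd of 9496 genes and had an unadjusted p of 0.00133, but it did not pass over all genes (adjusted p = 0.782, and 0.0800 with the preparation as replicate block). Of all genes, 0.0105% were called higher without the block and 0.0211% with it. Socs3 passed in the fits with the number as a block over all groups (adjusted p = 0.0265) and with separate number blocks in IPs and inputs (0.0377), which called 0.284% and 0.358% of all genes higher. Both fits were tried knowing that arrays group by number.

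Cish encodes CIS, which occupies STAT5 docking sites on the growth hormone and related receptors. Its level was 10.24, 9.72 and 9.24 in WT IP, 9.78, 8.28 and 8.59 in KO IP, 9.40, 8.34 and 8.85 in KO input, and 9.07, 8.49 and 8.97 in WT input. WT IP did not overlap WT input, and it did overlap KO IP, whose replicate 1 exceeded replicates 2 and 3 of WT IP. The WT IP minus WT input difference was 0.89 ± 0.44 (SE), with same-number values of 1.17, 1.22 and 0.27. It did not pass (adjusted p = 0.512 by limma). With the preparation as replicate block the adjusted p was 0.0667, and with 1 block per number 0.0505. Those fits called 2.41% and 3.81% of all genes higher. Between precipitates the difference was 0.85 (95% interval -0.10 to 1.80), with same-number values of 0.45, 1.44 and 0.65. With the replicate number as a block the interval was 0.27 to 1.42, and it did not pass (adjusted p = 0.148). In the knockout the IP and input differed by 0.02 (95% interval -0.93 to 0.97).

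Socs1 encodes a direct inhibitor of JAK catalytic activity, and its probe set was dim. With levels of 5.58, 5.16 and 4.46 in WT IP, 5.49, 5.36 and 3.95 in KO IP, 4.22, 4.36 and 4.18 in KO input and 4.59, 4.42 and 3.89 in WT input, its mean lay under the filter of 5.57 and it was not tested with the others. With no filter its WT IP minus WT input difference was 0.77 (adjusted p = 0.427) and its KO IP minus KO input difference 0.68 (adjusted p = 0.346). WT IP and KO IP overlapped, and replicate 3 was the lowest array of both.

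Socs5 and Socs4 are the pair linked to turnover of the epidermal growth factor receptor. Socs5 was 8.95, 9.16 and 9.85 in WT IP, 8.05, 8.40 and 9.21 in KO IP, 8.32, 8.10 and 8.91 in KO input, and 8.32, 8.21 and 9.21 in WT input. In each group the array numbered 3 was the highest, so the groups overlapped although WT IP exceeded its same-number partner in every case. The WT IP minus KO IP values were 0.90, 0.76 and 0.64, a mean of 0.77 ± 0.41 (SE). Its p of 0.084 by limma was before adjustment and is not like the adjusted values that follow. Without a block the difference did not pass after adjustment (95% interval -0.12 to 1.66). With separate number blocks in IPs and inputs it passed (adjusted p = 0.0295), as did 3.58% of all genes, and with the number as a block its adjusted p was 0.0586. Against WT input the same-number values were 0.63, 0.95 and 0.64, a mean of 0.74 (adjusted p = 0.56), which became an adjusted p of 0.0295 with 1 block per number over all groups, where 3.81% of all genes were called higher. With the preparation as the block it was 0.0663, and 2.41% were called. Socs4 showed no such regularity. Its WT IP levels were 5.95, 7.02 and 5.60, with replicate 2 apart, and the other groups ran from 5.67 to 6.18 (KO IP), 6.04 to 6.22 (KO input) and 5.62 to 6.12 (WT input). Its WT IP minus WT input difference was 0.26, and it was -0.16 without WT IP replicate 2.

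Socs7 and Socs6 encode members with a long N-terminal region that have been linked to insulin receptor substrates. Socs7 was 8.53, 8.25 and 7.87 in WT IP, 7.24, 6.17 and 6.65 in KO IP, 7.12, 7.19 and 7.46 in KO input, and 7.06, 7.45 and 7.45 in WT input. All WT IP arrays exceeded all 9 others, and 2 of the 3 KO IP arrays lay below every input array. Its WT IP minus KO IP difference was 1.53 ± 0.32 (SE), or 2.88-fold, with same-number values of 1.30, 2.08 and 1.21. It missed the threshold without a block (adjusted p = 0.105) and passed with the replicate number as a block (adjusted p = 0.0197), a fit in which 2.33% of all genes were called higher. Its WT IP minus WT input values were 1.47, 0.80 and 0.41 (mean 0.89, adjusted p = 0.349), and its KO IP minus KO input values were 0.12, -1.02 and -0.80 (mean -0.57, adjusted p = 0.55). Specific enrichment was 1.46 (95% interval 0.47 to 2.45, unadjusted p = 0.00735) and did not pass (adjusted p = 1, and 0.357 with the preparation as replicate block).

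**Figure D2:**
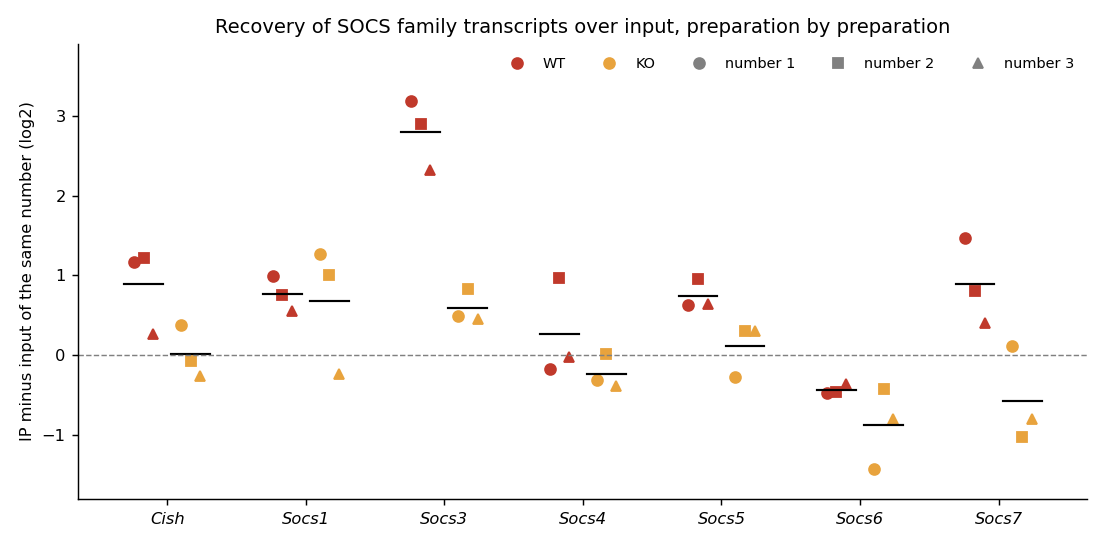
IP minus input difference (log2, y axis) of each preparation for the 7 transcripts, WT left and KO right within each gene. Points are preparations, shapes are replicate numbers and bars are means; the Socs3 values are 2.32 to 3.18 in WT and 0.45 to 0.83 in KO, and those of Socs6 are below 0 in all 6 preparations.

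Socs6 was the member with IP values below input in both genotypes. Its level was 6.44, 6.37 and 6.17 in WT IP, 5.50, 6.36 and 5.90 in KO IP, 6.93, 6.78 and 6.70 in KO input, and 6.90, 6.83 and 6.53 in WT input. Neither precipitate overlapped its own input, as was so in the lower direction for 7.59% of all genes in wild type and 10.1% in the knockout. The differences were -0.43 in wild type (adjusted p = 0.613) and -0.88 in the knockout (95% interval -1.49 to -0.28, adjusted p = 0.299), so neither passed. With the preparation as replicate block the knockout value had an adjusted p of 0.0561, and with 1 block per number 0.0324, in fits that called 5.28% and 9.45% of all genes lower. The median of all genes tested was -0.21 in that comparison as deposited, and quantile normalization moved it by 0.165, giving Socs6 a value of -0.97.

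Seen as a family, the 6 tested members had a median WT IP minus WT input difference of 0.81, against -0.11 over all genes tested. In this comparison 5 of the 6 were positive, where 41.6% of all genes were. In 3 members, Socs3, Socs7 and Cish, all WT IP arrays lay above all WT input arrays, a pattern that 7.72% of all genes had. Between precipitates all 6 were positive, with a median of 0.81 against 0.04 over all genes, and 2 of the 6, Socs3 and Socs7, did not overlap, against 5.44% of all genes. The KO IP minus KO input median was -0.10 with 3 members positive, against -0.21 over all genes. Since comparisons share WT IP or its input, these counts are not independent of one another. Across the 12 arrays Pearson's r between members was 0.78 for Socs3 with Socs5, 0.73 for Socs7 with Cish and 0.67 for Socs3 with Socs7, and -0.37 for Socs3 with Socs6. These are descriptions over arrays that share preparations and fractions.

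In total RNA no family member differed detectably between genotypes, with 95% intervals that reached from -1.03 to 0.99. The KO input minus WT input difference was 0.01 (95% interval -0.81 to 0.82) for Socs3, 0.02 (-0.93 to 0.97) for Cish and -0.14 (-1.03 to 0.75) for Socs5. It was 0.21 (-0.56 to 0.99) for Socs4, 0.05 (-0.56 to 0.65) for Socs6 and -0.07 (-0.76 to 0.63) for Socs7. By limma 0 of the 6 members had an unadjusted p under 0.05, and over all genes 0.0% were called in either direction, while 3 on the higher side and 2 on the lower had an unadjusted p under 0.05. The inputs of the genotypes overlapped in all 6 members. They did not in 0.663% of all genes on the higher side and 0.958% on the lower. Fewer cells carrying a transcript and less of it per cell cannot be told apart in such bulk samples. Socs3 in the inputs followed the number more than the genotype, with replicate 3 the highest at 6.86 (KO) and 7.03 (WT).

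**Figure D3:**
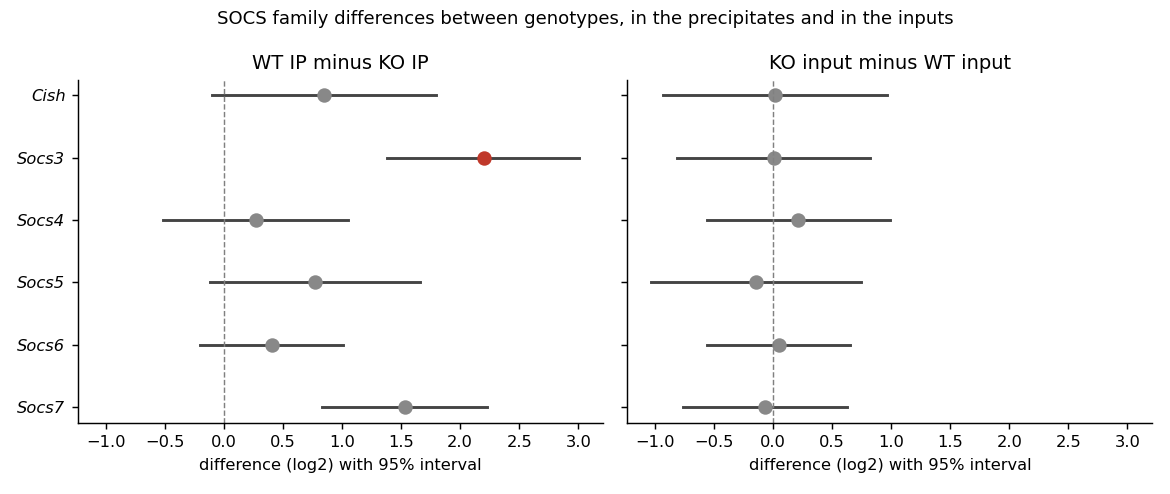
Fitted differences between genotypes (log2, x axis) with 95% intervals for the 6 tested members, WT IP minus KO IP on the left and KO input minus WT input on the right. The red point passed an adjusted p of 0.05 without a block: Socs3 at 2.20 in the precipitates, against 0.01 in the inputs.

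The rest of the cytokine pathway was read from a list of 106 symbols by role, of which 96 were matched to a probe set and 77 were tested. The list was chosen with earlier results of these data known, so setting it against all genes is a description. In the WT IP minus KO IP comparison 1 of the 77, Irf1, was called higher and 0 lower, and 8 higher and 0 lower with the replicate number as a block. Over all genes 0.253% were called higher without the block and 2.33% with it. Irf1, an interferon-induced transcription factor, averaged 10.85 ± 0.31 in WT IP, 8.85 ± 0.13 in KO IP, 8.57 ± 0.29 in KO input and 8.64 ± 0.18 in WT input (SD, n = 3 each). Its WT IP minus KO IP difference was 2.01 (adjusted p = 0.0152 by limma) and its WT IP minus WT input difference 2.22 (adjusted p = 0.0088). Its specific enrichment was 1.94 and did not pass (adjusted p = 0.365, and 0.0942 with the replicate block), and 0 of the 77 genes were called in that comparison in either fit. Of 26 STAT targets 18 were positive between precipitates, where 54.1% of all genes were, with a median of 0.46 against 0.04 over all genes. Against input the same genes had a median of -0.02 in WT IP, with 12 positive, and of -0.43 in KO IP, with 22 negative, while the medians of all genes were -0.11 and -0.21. Next by p were the kinase gene Pim3 (1.85, adjusted p = 0.0728), the acute-phase transcription factor gene Cebpd (1.98, 0.157) and Myc (1.75, 0.298), which did not pass without the block. Pim3 (adjusted p = 0.0154) and Cebpd (0.00289) passed with the block, and Myc did not (0.0579).

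The 3 tested JAK genes had a median of 0.00 between precipitates and the 5 tested STAT genes one of 0.10, with none called in either fit. All 5 STAT genes were negative in WT IP minus WT input (median -0.71) and in KO IP minus KO input (median -0.66), with 0 called without the block. Of all genes 41.6% were positive in the wild-type comparison (median -0.11) and 34.1% in the knockout one (median -0.21). With the replicate block Stat2, a STAT of interferon signalling named after its values were seen, was called lower in both (adjusted p = 0.0232 in WT and 0.0498 in KO). With that block 4.61% of all genes were called lower in the wild-type comparison and 5.28% in the knockout one. Between precipitates the 15 tested receptors had a median of 0.29 and the 9 other inhibitors of the pathway one of 0.39, against 0.04 over all genes. In KO input minus WT input 0 of the 77 genes were called in either fit, and the value with the smallest p was that of the chemokine gene Cxcl10 (1.30, unadjusted p = 0.0376, adjusted p = 1).

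**Figure D4:**
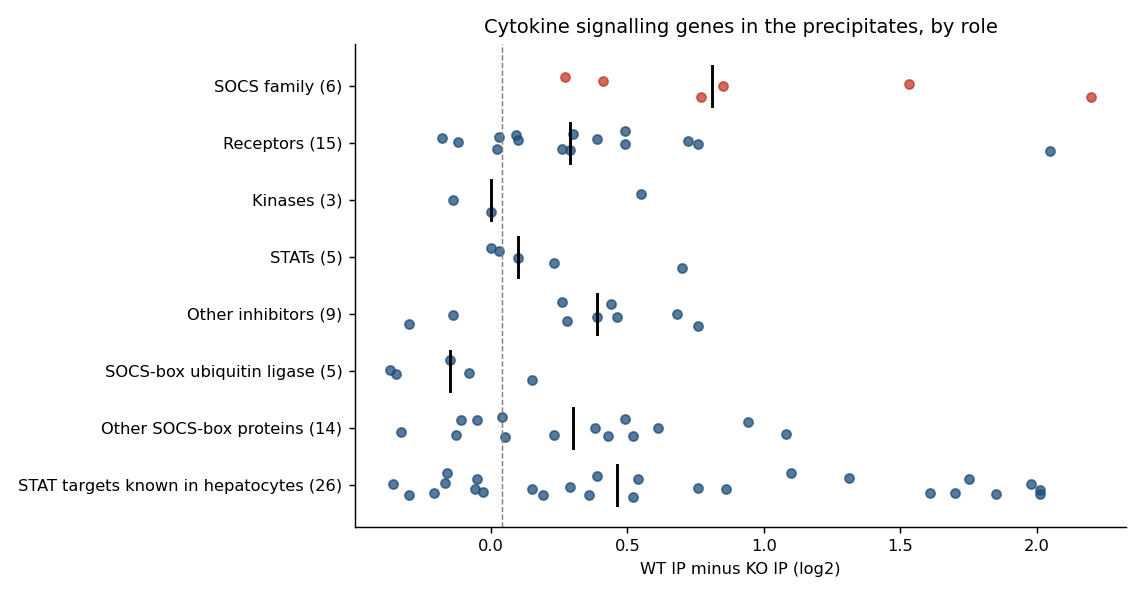
WT IP minus KO IP difference (log2, x axis) of each tested gene, by role (y axis, with the number of genes). Points are genes, spread vertically for legibility; black bars are medians and the dashed line is the median of all genes tested, 0.04. The SOCS family median is 0.81 and that of the STAT targets 0.46, in lists chosen with earlier results of these data known.

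The genes whose levels followed the members most closely over the 12 arrays were taken by Pearson's r for the 3 members with the widest range of group means. For Socs3 they were Arid3b (r = 0.942), Nfkbia (0.94) and Tmcc1 (0.935). Nfkbia, the gene of the NF-κB inhibitor IκBα, averaged 14.05 in WT IP, 10.96 in KO IP, 10.83 in KO input and 10.58 in WT input, the same order as Socs3. For Socs7 they were Ier3 (0.949), Klhl8 (0.938) and Ankrd1 (0.932), all with their lowest mean in KO IP. Ier3 averaged 13.12 in WT IP, 10.61 in KO IP, 11.78 in KO input and 11.77 in WT input. For Cish they were Zfp592 (0.949), Sowahb (0.942) and Foxq1 (0.918), all with their highest mean in WT IP. The genes were picked for a high r with the member, so a like order of group means follows largely from that choice. The r values also come from arrays that share preparations and fractions.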

How the data were processed

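RNA was hybridised to 12 single-colour arrays in 4 groups of 3, grouped by the sample titles. The table the authors deposited holds log2 values, judged from their range, for gene-based probe sets. How they were background-corrected and normalized is not stated in any source used here. Per the labels' protocols, biotinylated cRNA was made from 10 micrograms of total RNA, for IPs and inputs alike. The poly-A controls read 4.01 to 5.41 log2 units higher in the IPs, and whether the amounts were equal was not tested. Of 16539 probe sets 15780 carried 1 gene symbol (platform annotation, 15752 matched to RefSeq), 0 carried several, 64 were controls and 695 were unnamed here. Precision is limited by the number of arrays.

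The test covered the 9496 genes with a mean log2 value at or above the 40th percentile (5.57). Socs1 did not reach it. Differences, SEs and 95% intervals come from limma 3.58.1 in R 4.3.3, fitted to all arrays with the 4 group means (8 residual degrees of freedom). The p-values are two-sided and adjusted over all genes tested by Benjamini-Hochberg, called under 0.05. Figures used Python 3.11.15 and matplotlib 3.10.9. The fit without a block was tested on simulated data. The noise there was independent between arrays, so that test did not cover the grouping by number or the blocked fits. The alternatives were 3 replicate blocks, quantile and median scaling, 2 filters, the compared arrays alone, another variance prior and leaving out each array.

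Replicate numbers pair the samples: the series text splits each preparation into IP and input. After group means were removed, the 18 same-number pairs of arrays in different groups correlated at 0.453 to 0.936. Arrays of different numbers, pairs within a group included, correlated at -0.748 to 0.0685. Removing the group means itself lowers the values of different-number arrays, so these ranges are not a like comparison. The replicate block is the preparation for IP against input and specific enrichment (4 residual degrees of freedom) and the number between genotypes (6). All members are described. From the pathway list, calls and up to 4 genes per comparison with the smallest p are named, and genes outside this rule are said to be so. The members, lists and number blocks were chosen with earlier results of these data known.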

Additional observations from a re-analysis of the deposited data

How the results depend on the processing

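Leaving out 1 array gave 0 to 1 called members in WT IP minus WT input and in WT IP minus KO IP, and 0 in the other comparisons. With the replicate block 2 members were called in WT IP minus KO IP (Socs3 and Socs7), and it changed no other call. With 1 block per number the counts were 2 in WT IP minus WT input, 1 in KO IP minus KO input, 2 in WT IP minus KO IP and 1 in specific enrichment. Of all genes, those fits called 3.81% higher in WT IP minus WT input and 9.45% lower in KO IP minus KO input. They called 2.33% higher in WT IP minus KO IP and 0.284% higher in specific enrichment. With the number within each fraction the member counts were 3 in WT IP minus KO IP and 1 in specific enrichment, where 3.58% and 0.358% of all genes were called higher. That fit was not run for IP against input, where the blocks contain the fraction. The filter at the 60th percentile gave 0 in WT IP minus WT input and WT IP minus KO IP, because it removed Socs3 and left 3 members. Only the arrays compared also gave 0 in both, with Socs3 at an adjusted p of 0.155 and 0.402. Blocked fits called more genes in general, 229 against 10 higher and 438 against 0 lower in WT IP minus WT input. They called 221 against 24 higher in WT IP minus KO IP.

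Signs turned only in differences that were not called. Over single arrays left out, Socs4 ran from -0.16 to 0.55 in WT IP minus WT input and from -0.15 to 0.56 in WT IP minus KO IP. In KO IP minus KO input Cish ran from -0.43 to 0.32 and Socs5 from -0.22 to 0.36. In KO input minus WT input Cish ran from -0.24 to 0.28, Socs3 from -0.26 to 0.34, Socs5 from -0.37 to 0.17, Socs6 from -0.07 to 0.12 and Socs7 from -0.20 to 0.0021. Quantile normalization gave Cish -0.0013 there. Socs3 stayed positive in both WT IP comparisons in every fit that tested it, with adjusted p of 0.000392 to 0.155 against WT input and 0.00121 to 0.402 against KO IP. The smallest alternatives came from blocks and the largest from the compared arrays alone. For the other turns the cause was not tested.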

Other observations

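Genes listed with the ubiquitin ligase that SOCS boxes recruit, and genes for other proteins with a SOCS box, were also on the array. The 5 tested ligase genes were Cul5, Eloc, Rnf7, Cul2 and Rbx1, a wider set than the cullin 5 ligase described above. They are named to show the set, not by their p. Their median WT IP minus KO IP difference was -0.15, with 1 positive and none called. Of 14 tested genes for other SOCS-box proteins 10 were positive, with a median of 0.30 against 0.04 over all genes, and none was called in either fit. Against WT input, Asb1, an ankyrin-repeat SOCS-box gene, averaged 7.46 ± 0.42 in WT IP and 6.32 ± 0.06 in WT input (SD, n = 3), a difference of 1.14 (adjusted p = 0.188 by limma, and 0.0378 with the replicate block). In the knockout, Wsb2 averaged 8.87 ± 0.58 in KO IP and 10.23 ± 0.30 in KO input (SD, n = 3), a difference of -1.35 (adjusted p = 0.202, and 0.0256 with the block). Ptpn2, a phosphatase that removes phosphate from JAKs and STATs, averaged 10.89 in WT IP, 10.22 in KO IP, 9.84 in KO input and 9.73 in WT input. Its WT IP minus WT input difference was 1.16 (adjusted p = 0.208, and 0.0189 with the block). Its WT IP minus KO IP difference was 0.68 (0.93 and 0.266) and its specific enrichment 0.79 (1 and 0.58), and neither passed in either fit. Specific enrichment did not pass for Asb1 either (0.93, adjusted p = 1, and 0.708 with the block).

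One receptor gene was called with the replicate block in both WT IP comparisons and is named after its values were seen. Ifnlr1, which encodes the interferon lambda receptor, averaged 8.28 ± 1.34 in WT IP and 6.23 ± 0.36 in KO IP (SD). It averaged 6.13 ± 0.50 in KO input and 6.11 ± 0.70 in WT input, so the spread was widest in WT IP. Its difference was 2.17 against WT input (adjusted p = 0.215 by limma, and 0.0119 with the block) and 2.05 against KO IP (0.332 and 0.0121). With the block 2.41% and 2.33% of all genes were called higher in these comparisons. Its specific enrichment was 2.07 and did not pass (1 and 0.169).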
